A study of Mus musculus with 6 samples.

Results

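The genes described here were 35 genes of blood and lymphatic endothelium, the cells that line vessels, measured by microarray in dedifferentiated fat (DFAT) cells and in mature adipocytes (AC) of mice. A gene was taken through the probe sets whose annotation gives 1 symbol equal to its name. All 35 were found, out of 18193 genes with such a probe set, and 65 probe sets stood for them. DFAT cells were a cultured line that had lost the fat cell form. Its donors were mice with a GFP transgene, and it was raised by ceiling culture, in which fat cells float up against the top of the vessel and lose their lipid. AC were primary adipocytes isolated from mouse fat tissue, with no transgene, strain, age or depot stated in the sources used here. Each group had 3 arrays. It is not stated in the labels or the text whether replicate arrays were made from different animals or cultures, so each p-value reflects the scatter among these 6 arrays alone, which may be technical. If the DFAT arrays were of 1 line, they do not extend to others.

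Fat tissue is densely supplied with capillaries, and a preparation of buoyant adipocytes can carry cells of the tissue around them. Endothelial cells are known by receptors for vascular growth factors and angiopoietins, by adhesion proteins of their junctions and by transcription factors of the ETS and SCL families. In fat, their surface also holds the protein that brings lipoprotein lipase to the capillary lumen. Bulk RNA holds the sum of all cells, so fewer endothelial cells and less endothelial RNA per cell cannot be told apart in these values.

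Promoters in the RefSeq table of GRCm38.p6 were found for 19 of the 35 genes, 26 promoters in all, each of 250 bases before to 50 bases after a transcription start. The 250 bases before the start are shown for 4 of them, those with the largest difference in their role group among genes with a promoter there. They show what the start regions of a water channel, a sialomucin and the receptors for angiopoietin and VEGF look like. Capitals mark the motifs searched, on either strand.
Aqp1, chr6:55336049-55336298, plus strand: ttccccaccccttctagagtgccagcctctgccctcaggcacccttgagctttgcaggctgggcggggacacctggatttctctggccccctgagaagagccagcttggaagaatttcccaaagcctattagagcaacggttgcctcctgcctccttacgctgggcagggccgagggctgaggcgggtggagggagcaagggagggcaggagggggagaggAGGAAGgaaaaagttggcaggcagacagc
Emcn, chr3:137340828-137341077, plus strand: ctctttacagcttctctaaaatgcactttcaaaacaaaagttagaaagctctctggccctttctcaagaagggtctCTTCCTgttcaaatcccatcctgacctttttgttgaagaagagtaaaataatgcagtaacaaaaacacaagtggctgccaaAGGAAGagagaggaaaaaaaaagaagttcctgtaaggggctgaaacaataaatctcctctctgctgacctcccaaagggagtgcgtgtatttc
Tek, chr4:94739039-94739288, plus strand: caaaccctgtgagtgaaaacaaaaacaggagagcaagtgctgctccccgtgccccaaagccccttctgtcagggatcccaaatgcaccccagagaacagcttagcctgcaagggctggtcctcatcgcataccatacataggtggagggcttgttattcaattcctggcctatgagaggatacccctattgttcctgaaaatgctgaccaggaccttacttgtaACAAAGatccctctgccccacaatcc
Kdr, chr5:75978456-75978705, minus strand: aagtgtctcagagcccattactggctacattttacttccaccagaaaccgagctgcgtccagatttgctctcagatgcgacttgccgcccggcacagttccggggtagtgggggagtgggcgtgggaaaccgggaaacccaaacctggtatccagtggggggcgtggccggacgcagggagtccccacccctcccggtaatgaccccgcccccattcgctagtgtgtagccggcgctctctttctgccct

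Aqp1 held AGGAAG, an ETS core with its flank, once, and Emcn held it on both strands. Tek held the SOX motif ACAAAG in the printed stretch, and the GATA motif AGATAA in the bases after its start. Kdr held none of the motifs searched. Over the 300 bases, AGGAAG lay in 13 of the 26 promoters, against 35.4% of all 32851 promoters of that length. AGATAA lay in 15.4% of the endothelial promoters, against 11.2% of all, and ACAAAG in 15.4%, against 18.7%. CAGCTG, an E-box, lay in 7.69% against 16.3%, ACAATG, another SOX motif, in 3.85% against 12.6%, and CCGGAAGT, a strong ETS motif, in 0 of the 26 against 3.89% of all. CCGGAAGT does not contain AGGAAG, though both hold the ETS core, and a match is a description of the sequence only.

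The values were log2 values after RMA, which corrects the background, brings arrays to one distribution and gives 1 value per probe set. The array medians were 4.92 to 4.94 in DFAT cells and 4.98 to 5.11 in AC. RMA values carry no detection call, so a background level was set on each array from 92 genes of sperm, retina, lens and sense organs, as the 95th percentile of their 116 probe sets. It was 5.65 to 5.82 on the DFAT arrays and 5.68 to 5.83 on the AC arrays. Of the 92 genes, 11 were called lower in DFAT cells and 2 higher, with differences of -3.63 to 1.65 over the list. Some of them may thus carry signal, which would raise the level. All 22 measured adipocyte markers were lower in DFAT cells, with a mean of 6.65 to 6.66 on the DFAT arrays and 12.44 to 12.55 on the AC arrays, so the AC arrays carried the markers of their label. The array of AC replicate 1 stood apart from the others of its group, with a Pearson correlation across probe sets of 0.971 and 0.969 with them, while those 2 correlated at 0.992 and the DFAT arrays at 0.995 to 0.996. Its hybridization controls, RNAs added in known amounts before hybridization, averaged 11.78, against 11.26 and 11.18 on the other AC arrays and 10.91 to 11.00 on the DFAT arrays. The counts for the 35 genes, and those of other lists that it moved, are also given without it.

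Endothelial genes were low in DFAT cells, and most were well above the background level in AC. Of the 35 genes, 30 were lower in DFAT cells, 1, Tm4sf1, was higher, and 4 did not pass the test (limma, adjusted p under 0.05 over all 45037 probe sets). Over all probe sets, 18.1% were lower and 20.3% were higher. The median difference of the 35 genes, DFAT cells minus AC, was -3.31 on the log2 scale, and that of all probe sets was -0.06. All 3 DFAT arrays lay below all 3 AC arrays for 33 genes, as they did for 26.5% of all probe sets. Without AC replicate 1, 33 genes were lower and 1 was higher, with a median of -2.85, and 22.9% of all probe sets were lower. All 30 genes lower with every array were also lower without that one.

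Most of these genes lay at or under this background level in DFAT cells. On all 3 DFAT arrays, 27 of the 35 were at or under the background level, as were 57.7% of all probe sets. On all 3 AC arrays 3 were, namely Tal1, Lyl1 and Prox1, as were 55.4% of all probe sets. By the probe set brightest on average, 6 genes exceeded it on every DFAT array, Tm4sf1, Fli1, Adgrf5, Mmrn2, Egfl7 and Aqp1, and on every AC array 27 did. For each of Adgrf5, Mmrn2 and Egfl7, at least 1 other probe set was at the background level on all 3 DFAT arrays. For a gene at the background level in DFAT cells the fitted difference has no exact size. For each such gene of the 35 that was lower and cleared that level in AC, a fold is given, AC over the background level of the DFAT arrays. AC values under their own array's level were set to it first, here called floored. Where every AC array was above its level, the fold is a bound, given as at least N-fold lower. Flt4, Tie1, Clec14a, Myct1 and Lyve1 were under it on some AC arrays, so their fold is no bound. Differences given for genes outside the 35 without such a bound are fitted values only. With every value under the background level set to it, 20 of the 35 were lower, and Flt4, Tie1, Tal1, Lyl1, Clec14a, Cd300lg, Vwf, Ushbp1, Myct1 and Lyve1 did not pass the test. The median difference of the 35 was then -1.89.

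**Figure D1:**
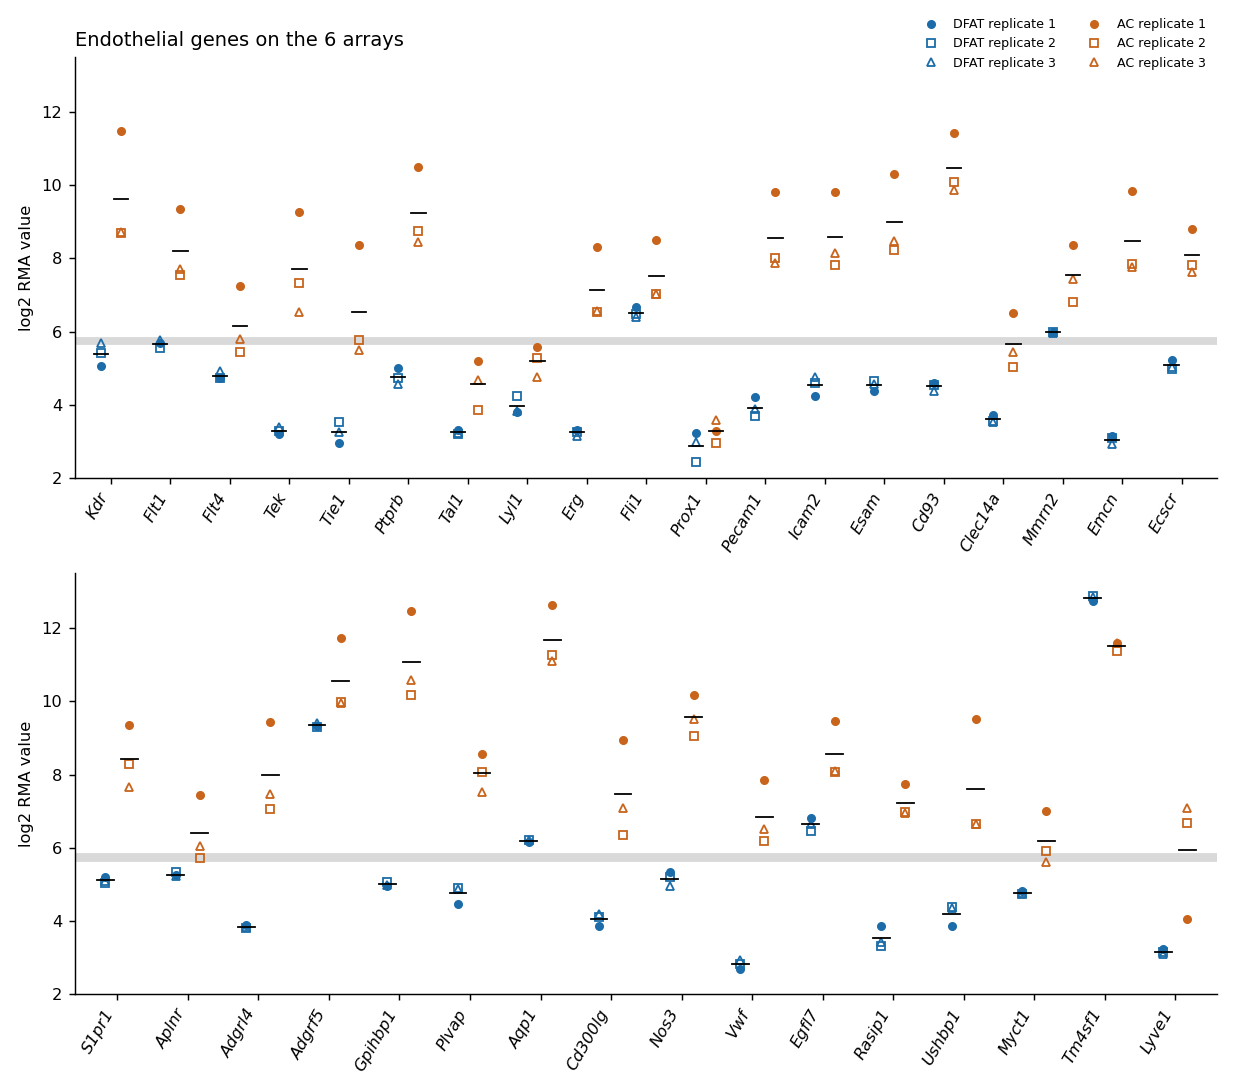
Log2 RMA values of the 35 endothelial genes (y axis) on the 3 DFAT arrays (blue, left of each pair) and the 3 AC arrays (orange, right), with group means as black bars and the range of the background level over the arrays in grey. For 27 genes the DFAT arrays lie at or under the background level, and AC replicate 1, the filled orange point, lies above the other AC arrays for 33 genes.

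Among the receptors for VEGF, the growth factors that drive vessel growth, 3 of 3 were lower in DFAT cells. Kdr, the main signalling receptor for VEGF-A, had 5.07, 5.41 and 5.67 in DFAT cells and 11.49, 8.68 and 8.73 in AC, with a difference of -4.25 (95% interval -5.84 to -2.66, adjusted p = 0.00162 from limma). Flt1, which binds VEGF-A, VEGF-B and placental growth factor, had 5.68, 5.54 and 5.76 in DFAT cells and 9.35, 7.54 and 7.71 in AC (-2.54, adjusted p = 0.00213 from limma), and its other 3 probe sets were lower too. Both genes lay near the background level on the DFAT arrays and far above it on every AC array. Flt4, the receptor for VEGF-C and VEGF-D on lymphatic vessels, had 4.73, 4.74 and 4.92 in DFAT cells and 7.26, 5.44 and 5.79 in AC (-1.37, adjusted p = 0.0336 from limma, 1.46-fold lower floored). It cleared the background level only on AC replicate 1, and its other probe set did not pass the test (-0.37). Without AC replicate 1 its difference was -0.82 (adjusted p = 0.0023 from limma), and the call was lost when any 1 DFAT array was left out (adjusted p of 0.0777 to 0.103 from limma).

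The receptors for angiopoietins and the phosphatase that acts on them were all lower, 3 of 3. Tek, the angiopoietin receptor TIE2, had 3.20, 3.27 and 3.40 in DFAT cells and 9.27, 7.32 and 6.54 in AC (-4.42, adjusted p = 0.000613 from limma, at least 4.01-fold lower). Tie1, its co-receptor, had 2.95, 3.53 and 3.26 in DFAT cells and 8.36, 5.78 and 5.50 in AC (-3.30, adjusted p = 0.0054 from limma, 1.93-fold lower floored). Ptprb, the vascular endothelial phosphatase, had 4.99, 4.72 and 4.58 in DFAT cells and 10.49, 8.74 and 8.45 in AC (-4.46, adjusted p = 0.000171 from limma, at least 11.5-fold lower). Its other probe sets were at -5.25, called lower, and at -1.09, which was at the background level in both groups and did not pass the test. The groups did not overlap for any of these receptors, and the DFAT arrays lay close together. On AC replicate 3, however, Tie1 was under the background level of 5.83.

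Of 5 transcription factors, 3 were lower and 2 did not pass the test. Erg, an ETS factor that maintains endothelial identity, had 3.31, 3.26 and 3.16 in DFAT cells and 8.30, 6.52 and 6.55 in AC (-3.88, adjusted p = 0.00023 from limma, at least 2.67-fold lower). Fli1, an ETS factor also made by blood and some mesenchymal cells, had 6.68, 6.48 and 6.39 in DFAT cells and 8.50, 7.01 and 7.03 in AC, above the background level on every array. Its difference of -0.998 (95% interval -1.87 to -0.12) had an adjusted p of 0.0718 from limma, and without AC replicate 1 it was -0.50 with an adjusted p of 0.0136 from limma. The groups did not overlap for Erg or Fli1. Tal1 and Lyl1, basic helix-loop-helix factors of blood and endothelium, passed the test at -1.33 and -1.24, but neither exceeded the background level on any of the 6 arrays, so these calls hardly measure a change. Prox1, the factor that sets lymphatic identity, had 3.23, 2.42 and 2.99 in DFAT cells and 3.27, 2.96 and 3.57 in AC, at the background level throughout (-0.39, 95% interval -0.95 to 0.17, adjusted p = 0.249 from limma).

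All 8 glycoproteins of the endothelial surface and junctions were lower, 7 of them at the background level in DFAT cells. Cd93, a C-type lectin-like receptor, had 4.6, 4.55 and 4.37 in DFAT cells and 11.42, 10.10 and 9.88 in AC (-5.96, adjusted p = 7.97e-06 from limma, at least 27.1-fold lower). Another of its probe sets was lower at -5.27. Those at -0.67, -0.94 and -1.09 were at the background level in both groups, and the one at -0.67 did not pass the test. Emcn, the sialomucin endomucin of veins and capillaries, had 3.14, 3.08 and 2.92 in DFAT cells and 9.85, 7.83 and 7.77 in AC (-5.44, adjusted p = 7.92e-05 from limma, at least 6.85-fold lower). Pecam1, the junction protein CD31, had 4.20, 3.69 and 3.88 in DFAT cells and 9.82, 8.01 and 7.87 in AC (-4.65, adjusted p = 0.000135 from limma, at least 7.26-fold lower). By the brightest probe set of Cd93, Emcn and Pecam1, every AC array lay above the background level, and no DFAT array reached it. Esam, an adhesion molecule of tight junctions, averaged 4.52 ± 0.14 in DFAT cells and 8.997 ± 1.13 in AC (SD, n = 3 each), a difference of -4.47. Icam2, a ligand for leukocyte integrins, averaged 4.53 ± 0.27 in DFAT cells and 8.58 ± 1.07 in AC, a difference of -4.05. Ecscr, a regulator of endothelial migration, averaged 5.08 ± 0.13 in DFAT cells and 8.09 ± 0.63 in AC, a difference of -3.01. These were at least 9.78-fold, 7.33-fold and 5.21-fold lower by their bounds, in that order. Clec14a, a lectin of the same family as Cd93, averaged 3.61 ± 0.11 in DFAT cells and 5.65 ± 0.76 in AC (-2.05, 1.23-fold lower floored) and cleared the background level only on AC replicate 1. Mmrn2, a matrix protein that binds both lectins, averaged 5.98 ± 0.02 in DFAT cells and 7.53 ± 0.79 in AC (-1.55) by its brightest probe set, whose name ending marks probes that may match other transcripts. Its other 3 probe sets were lower by more, at -3.77, -4.81 and -4.88, and were at the background level on every DFAT array.

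Of 4 G protein-coupled receptors, 2 were lower and 2 did not pass the test. S1pr1, the receptor for sphingosine 1-phosphate that stabilizes the vessel wall, had 5.20, 5.05 and 5.10 in DFAT cells and 9.35, 8.28 and 7.66 in AC (-3.31, adjusted p = 0.00023 from limma, at least 6.61-fold lower). Adgrl4, an adhesion receptor of sprouting endothelium, had 3.89, 3.80 and 3.84 in DFAT cells and 9.43, 7.07 and 7.48 in AC (-4.15, adjusted p = 0.00047 from limma, at least 4.87-fold lower). Both were at the background level in DFAT cells. Aplnr, the apelin receptor, had 5.33 at most in DFAT cells and 7.44, 5.71 and 6.04 in AC (-1.13, adjusted p = 0.0568 from limma), while its other probe set had 3.46, 3.13 and 3.11 in DFAT cells and 9.85, 6.98 and 7.45 in AC (-4.86, adjusted p = 0.0006 from limma, at least 5.23-fold lower). Adgrf5, an adhesion receptor also made by lung epithelium, had 9.32, 9.30 and 9.42 in DFAT cells and 11.74, 9.99 and 9.95 in AC (-1.22, adjusted p = 0.0618 from limma), while its other probe set had 4.72, 4.96 and 4.94 in DFAT cells and 8.45, 7.25 and 7.32 in AC (-2.80, adjusted p = 0.000192 from limma, at least 3.9-fold lower). For both receptors the brighter probe set, which stood for the gene, showed the smaller difference. Without AC replicate 1 the brighter probe sets passed the test as well, Aplnr at -0.61 (adjusted p = 0.00734 from limma) and Adgrf5 at -0.62 (adjusted p = 0.00253 from limma).

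All 4 genes of capillary transport and permeability were lower. Gpihbp1, which carries lipoprotein lipase to the capillary lumen, had 4.96, 5.05 and 4.98 in DFAT cells and 12.46, 10.18 and 10.59 in AC (-6.08, 95% interval -7.27 to -4.88, adjusted p = 4.7e-05 from limma). It was at least 41.3-fold lower. Aqp1, a water channel of capillaries, had 6.16, 6.22 and 6.21 in DFAT cells and 12.64, 11.26 and 11.10 in AC (-5.47, adjusted p = 1.32e-05 from limma), just above the background level on every DFAT array. Plvap, which forms the diaphragms of fenestrae and caveolae, averaged 4.75 ± 0.24 in DFAT cells and 8.05 ± 0.52 in AC (-3.30, at least 5.08-fold lower). Cd300lg, a mucin-like receptor of capillaries, had 3.85, 4.10 and 4.18 in DFAT cells and 8.96, 6.35 and 7.07 in AC (-3.41, adjusted p = 0.00198 from limma, at least 3.37-fold lower). Gpihbp1, Aqp1 and Cd300lg were thus separated between the groups on every array, as Plvap was.

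Among the 8 remaining genes, 7 were lower and Tm4sf1 was higher. Nos3, the endothelial nitric oxide synthase, had 5.32, 5.20 and 4.95 in DFAT cells and 10.18, 9.06 and 9.51 in AC (-4.43, adjusted p = 7.87e-06 from limma, at least 14.7-fold lower). Vwf, the platelet-binding protein stored in endothelial granules, had 2.70, 2.83 and 2.93 in DFAT cells and 7.84, 6.20 and 6.50 in AC (-4.03, adjusted p = 8.92e-05 from limma, at least 2.2-fold lower). Rasip1, a Ras-interacting protein of lumen formation, had 3.86, 3.32 and 3.41 in DFAT cells and 7.75, 6.98 and 6.96 in AC (-3.70, adjusted p = 1.3e-05 from limma, at least 2.88-fold lower). These genes were at the background level on every DFAT array and above it on every AC array. Ushbp1, an intracellular protein named for its binding to an Usher syndrome protein, had 3.86, 4.39 and 4.35 in DFAT cells and 9.51, 6.64 and 6.64 in AC (-3.40, adjusted p = 0.00596 from limma, at least 3.71-fold lower). Egfl7, a secreted protein that endothelium adds to its matrix, had 6.81, 6.45 and 6.65 in DFAT cells and 9.48, 8.08 and 8.10 in AC (-1.92, adjusted p = 0.00352 from limma). Myct1, a membrane protein of endothelium, had 4.82, 4.74 and 4.76 in DFAT cells and 7.01, 5.92 and 5.62 in AC (-1.41, adjusted p = 0.00996 from limma, 1.46-fold lower floored). By the probe sets used, Egfl7 alone of these lay above the background level on every DFAT array.

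Tm4sf1, a tetraspanin-like protein of endothelium that many cultured mesenchymal and tumour cells also make, had 12.75, 12.88 and 12.85 in DFAT cells and 11.60, 11.38 and 11.59 in AC (1.30, 95% interval 0.996 to 1.61, adjusted p = 0.000126 from limma). It was higher by all 3 of its probe sets, the others by 0.73 and 0.94. AC replicate 1 did not stand out for it. Lyve1, the hyaluronan receptor of lymphatic endothelium and of some tissue macrophages, had 3.23, 3.14 and 3.10 in DFAT cells and 4.05, 6.67 and 7.09 in AC (-2.78, adjusted p = 0.014 from limma, 1.75-fold lower floored). It was the 1 gene of the 35 that lay lower on AC replicate 1 than on both other AC arrays, under the background level there, and without that array its difference was -3.73 (adjusted p = 7.57e-07 from limma). Without AC replicate 2 it did not pass the test (-2.42, adjusted p = 0.053 from limma).

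**Figure D2:**
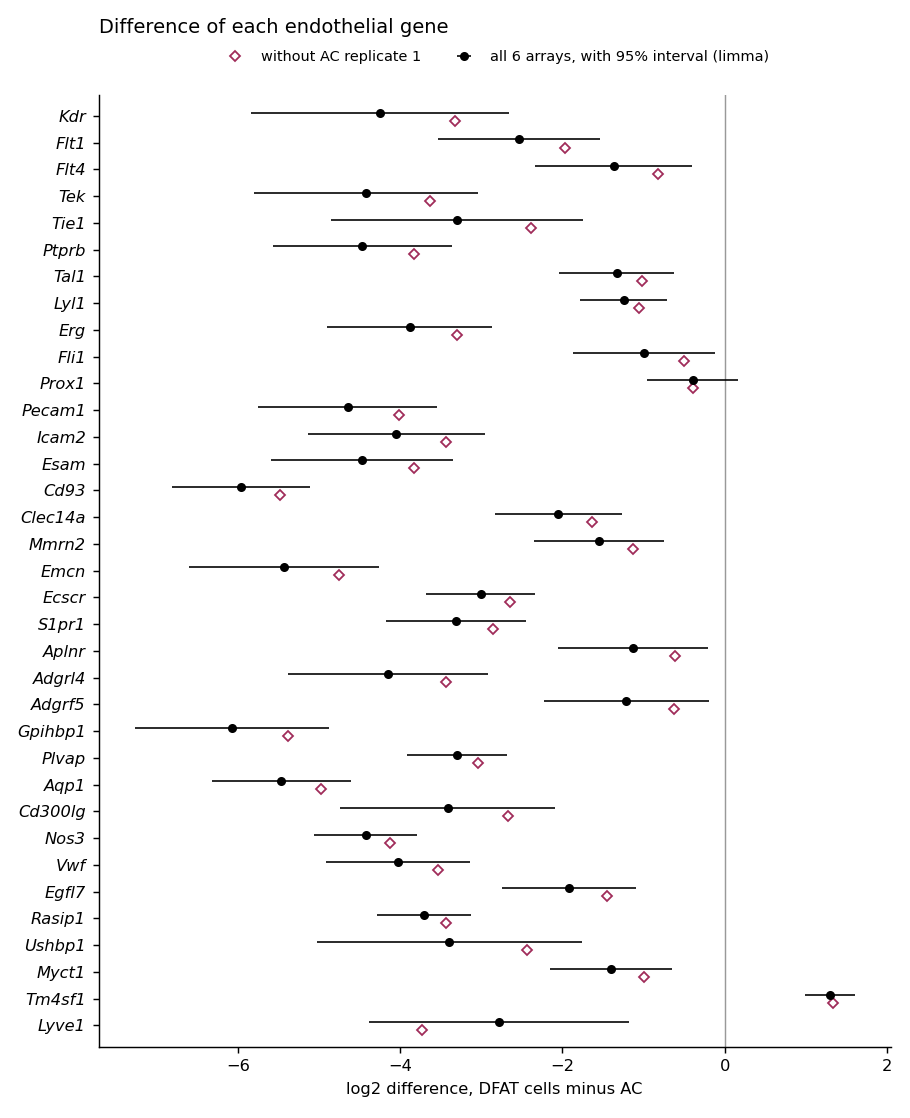
Log2 difference, DFAT cells minus AC (x axis), of the 35 endothelial genes (y axis), with all 6 arrays as black points with limma's 95% intervals and without AC replicate 1 as open diamonds. Of the 35 points, 34 lie left of 0 and Tm4sf1 lies right of it, and leaving out AC replicate 1 moves most differences toward 0 and Lyve1 away from it.

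The AC arrays differed among themselves in these genes far more than the DFAT arrays did. The median SD of the 35 genes was 0.12 on the DFAT arrays and 0.92 on the AC arrays, and 0.21 on the AC arrays when replicate 1 was left out. Over all probe sets the median SD was 0.12 in DFAT cells and 0.24 in AC. AC replicate 1 lay above both other AC arrays for 33 of the 35 genes, as for 33.4% of all probe sets, and at least 2-fold above their mean for 27, as for 3.64% of all probe sets. The median excess was 1.496 on the log2 scale, or 2.82-fold, with quartiles of 1.16 and 1.92, while over all probe sets the median was -0.05. With the arrays scaled on the hybridization controls, which were themselves highest on that array, 17 genes lay at least 2-fold above, with a median of 0.93. For 8 genes the excess was at least 4-fold, among them Ushbp1 at 7.33-fold, Kdr at 6.9-fold, Tie1 at 6.59-fold and Tek at 5.09-fold. It was smaller for Nos3 at 1.86-fold, Rasip1 at 1.72-fold and Plvap at 1.7-fold. Tm4sf1 at 1.09-fold and Prox1 at 1.01-fold showed hardly any. AC replicates 2 and 3 differed by -0.83 to 0.78 with a median of -0.04, and 27 genes differed by no more than 0.5 between them. This is a description of 1 array against the others of its group, with no test.

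**Figure D3:**
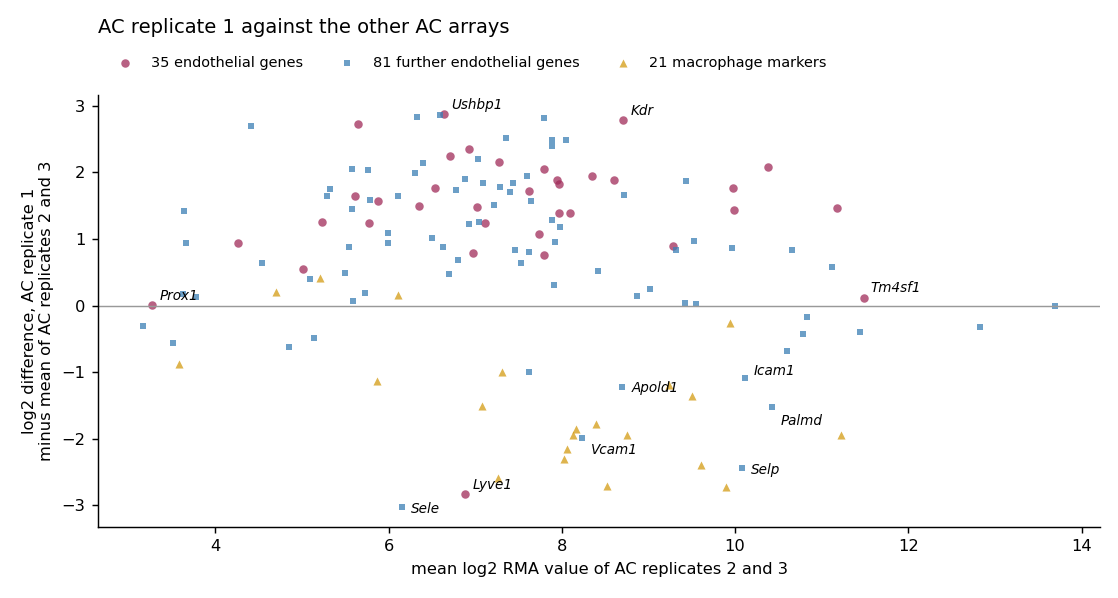
Log2 difference of AC replicate 1 from the mean of AC replicates 2 and 3 (y axis) against that mean (x axis), for the 35 endothelial genes (circles), 81 further endothelial genes (squares) and 21 macrophage markers (triangles). Of the 35 genes Lyve1 lies below 0, at -2.83, among the leukocyte adhesion genes Sele, Selp and Vcam1 and the macrophage markers.

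Markers of other cells of fat tissue were measured beside the endothelial genes, and several moved with them. For comparison, 18.1% of all probe sets were lower in DFAT cells and 20.3% were higher. Without AC replicate 1, 22.9% were lower. The macrophage markers averaged 4.28 to 4.34 on the DFAT arrays and 6.36, 7.80 and 7.87 on the AC arrays, with 18 of 21 lower in DFAT cells, among them Ctss at -5.93 and C1qb at -5.68, and 3 at the background level in AC. On AC replicate 1 they ran opposite to the endothelial genes, with 18 of 21 below both other AC arrays and 16 at least 2-fold below. Lyve1 was low on that array too, and 10 of the 13 stromal progenitor markers also lay below both other AC arrays there. Of the 22 adipocyte markers, 11 lay below both and 1 at least 2-fold below. The share of all probe sets lying below was not counted. Without AC replicate 1, 19 of the 21 macrophage markers were lower. The epithelial and mammary markers averaged 4.57 to 4.62 in DFAT cells and 8.59, 7.99 and 7.99 in AC. Of 19, 16 were lower, among them the keratin Krt18 at -7.81 and Krt8 at -6.72. Without AC replicate 1, 16 were lower and 1 was higher. The pericyte and smooth muscle markers averaged 7.003 to 7.06 in DFAT cells and 8.37, 7.99 and 8.02 in AC. Of 15, 10 were lower, led by the pericyte gene Rgs5 at -7.03 and Myh11 at -4.06, and 4 were higher, by up to 3.96. The endothelial genes themselves averaged 4.82 to 4.83 in DFAT cells and 8.86, 7.39 and 7.47 in AC. The epithelial and pericyte lists thus also had their highest AC mean on replicate 1, by smaller margins. The adipocyte markers did not, with 12.46 there and 12.55 and 12.44 on the others, led in their fall in DFAT cells by Adipoq at -10.40 and Cd36 at -10.09. The stromal progenitor markers averaged 8.20 to 8.25 in DFAT cells and 8.37, 9.05 and 8.94 in AC. Of 13, 5 were lower and 5 higher, with a median difference of 0.09. Their largest differences were Dcn at -8.14 and Lum at -6.41, while the highest in the other direction was 4.94. Their part in the endothelial values was not tested.

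Markers of blood, mesothelial and nerve cells were counted as well, beside the same 18.1% lower and 20.3% higher of all probe sets. At the background level in AC were 55.4% of all probe sets. Of 13 lymphocyte and neutrophil markers 6 were lower and 10 were at the background level in AC, though Ighm, the heavy chain of immunoglobulin M, lay at 11.46, 12.76 and 12.74 there (-6.73) and S100a8 followed at -2.81. Without AC replicate 1, 9 of the 13 were lower. Of 10 erythroid and platelet markers 3 were lower and 1 higher, led by Pf4 at -3.58 and Gp1bb at 3.05, and 5 were lower without AC replicate 1. Of 10 mesothelial markers 3 were lower and 9 were at the background level in AC, led by Lrrn4 at -1.26 and Bnc1 at -0.74. Without AC replicate 1, 3 of them were lower and 1 was higher. Of 6 nerve and Schwann cell markers 5 were lower and 1 higher, led by Mbp at -3.44 and Ncam1 at 2.56. The mean of the erythroid and platelet markers was 4.55 to 4.65 in DFAT cells and 4.99, 5.15 and 5.27 in AC, lowest on replicate 1 among the AC arrays.

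**Figure D4:**
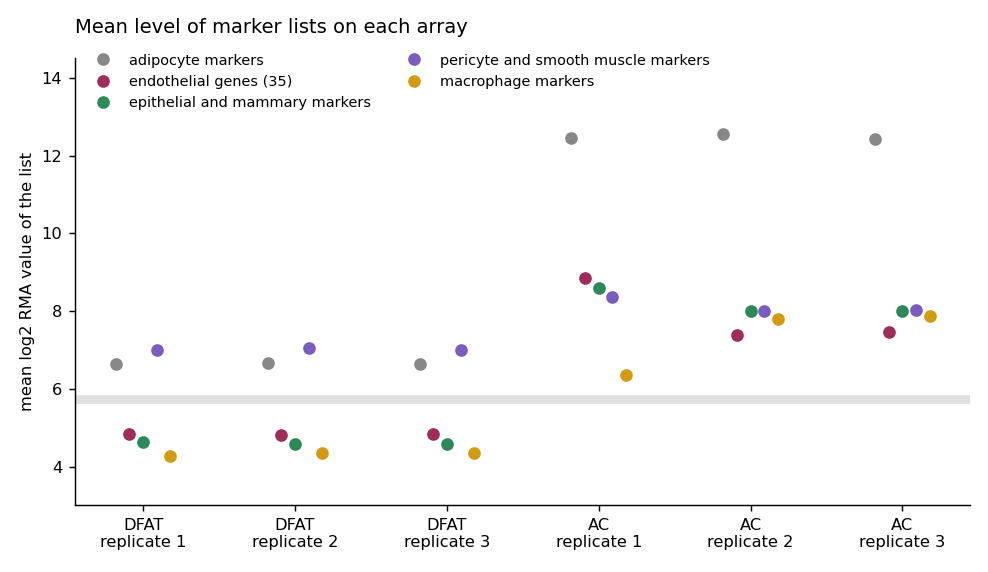
Mean log2 RMA value of 5 marker lists (y axis) on each array (x axis), 1 point per list and array, with the range of the background level in grey. On AC replicate 1 the endothelial genes have their highest mean, 8.86, and the macrophage markers their lowest AC mean, 6.36.

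The remainder of the endothelial program was read from a list of further genes of these cells, 81 of 83 of them measured. Of these 50 were lower in DFAT cells, against 18.1% of all probe sets, and 10 were higher, against 20.3%. The other 21 did not pass the test. The median difference was -1.53, or -0.51 with values floored at the background level. Without AC replicate 1 the counts were 52 lower and 16 higher. Cdh5, VE-cadherin of the endothelial junction, had 4.18, 4.37 and 3.99 in DFAT cells and 11.31, 9.95 and 8.91 in AC (-5.88, at least 20.4-fold lower). Cldn5, the tight junction claudin, had 4.81, 4.92 and 4.86 in DFAT cells and 11.49, 10.68 and 10.62 in AC (-6.07, at least 37.3-fold lower). Sox17, a factor of arterial endothelium, had 4.85, 4.79 and 4.52 in DFAT cells and 8.29, 7.63 and 7.29 in AC (-3.01, at least 4.08-fold lower). Palmd, which encodes palmdelphin, and Icam1, the leukocyte adhesion molecule, were also lower, at least 18.5-fold and 16.5-fold by their bounds, and neither is particular to endothelium. Higher in DFAT cells were Foxc2, a forkhead factor of lymphatic valves and mesenchyme, at 5.94, the netrin receptor Unc5b at 3.86, the clotting inhibitor Tfpi at 3.39 and the ETS factor Elk3 at 2.52. These genes are also made by mesenchymal cells. Unc5b had 10.09, 10.13 and 10.27 in DFAT cells and 6.93, 6.15 and 5.84 in AC, and Foxc2 was at the background level in AC. At the background level in DFAT cells were 47 of the 81, where 57.7% of all probe sets were too. In AC 10 of the 81 were, where 55.4% of all probe sets were.

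AC replicate 1 lay at least 2-fold above the other AC arrays for 36 of the 81 further genes, as for 3.64% of all probe sets. It lay at least 2-fold below them for 6 of the 81, a direction not counted over all probe sets. Some of those below were endothelial genes of leukocyte adhesion, named here after their values were seen. Sele, E-selectin, had 2.97 to 2.98 in DFAT cells, and 3.13 on AC replicate 1 against 6.08 and 6.23 on the other AC arrays. Selp, P-selectin, had 4.55, 5.32 and 4.74 in DFAT cells and 7.64, 10.09 and 10.08 in AC. Vcam1, another leukocyte adhesion molecule, had 9.19, 9.10 and 9.12 in DFAT cells and 6.25, 8.24 and 8.23 in AC, higher in DFAT cells by 1.56 (adjusted p = 0.0361 from limma) and by 0.90 without AC replicate 1 (adjusted p = 0.0003 from limma). Sele, Selp and Vcam1 were thus lowest on the AC array where the macrophage markers and Lyve1 were lowest. Icam2, a ligand for leukocyte integrins, went the other way, with 9.80 on AC replicate 1 against 7.80 and 8.14 on the other AC arrays.

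Of 16 measured genes of lymphatic endothelium, 6 were lower in DFAT cells, 6 were higher and 4 did not pass the test. Of all probe sets, 18.1% were lower and 20.3% were higher. The median of the 16 genes was -0.30, or -0.05 with floored values. Without AC replicate 1 their counts were 7 lower and 6 higher. This list shares Foxc2, Nrp2, Gja4, Nr2f2 and Sox18 with the list of further endothelial genes. Pdpn, podoplanin, which fibroblasts and mesenchymal cells also make, had 10.92, 10.97 and 11.08 in DFAT cells and 5.86, 8.02 and 7.998 in AC, higher in DFAT cells by 3.70. Sox18, a factor of early lymphatic and blood endothelium, had 4.62, 4.06 and 4.48 in DFAT cells and 10.60, 7.62 and 7.97 in AC (-4.34, at least 8.12-fold lower). Of the 35 genes, those tied to lymphatic vessels gave no common picture, since Prox1 was at the background level everywhere, Flt4 was above it on 1 of 3 AC arrays and Lyve1 on 2, and neither exceeded it on any DFAT array.

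The ligands and partners of the receptors were called in both directions. Of 35 measured, 17 were lower in DFAT cells, against 18.1% of all probe sets. Another 8 were higher, near the 20.3% of all probe sets that were, and 10 did not pass the test. The median was -0.46, or -0.15 with floored values. The counts were 17 and 8 without AC replicate 1 too, and 10 and 8 when the hybridization controls set the scale. Vegfa, the main ligand of Kdr, had 8.72, 8.79 and 8.57 in DFAT cells and 9.68, 9.92 and 10.17 in AC (-1.23), and Vegfb, a ligand of Flt1, had 8.23, 8.19 and 8.23 in DFAT cells and 10.65, 10.41 and 10.37 in AC (-2.26). Vegfc, the ligand of Flt4, was lower at -1.94, and Pgf, placental growth factor, at -1.02. The other Flt4 ligand, Vegfd, did not pass the test at 0.43 (adjusted p = 0.138 from limma). Vegfa and Vegfb were above the background level in both groups.

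Angpt1, the agonist of Tek that perivascular cells secrete, was higher in DFAT cells, with 9.11, 9.06 and 9.02 against 7.78, 7.81 and 7.54 in AC (1.36, adjusted p = 0.000109 from limma). Angpt2, which can oppose it, was lower at -1.08, and Angpt4 was higher at 1.15. Apln, the ligand of the apelin receptor, was higher, with 7.89, 8.06 and 8.13 in DFAT cells and 6.87, 6.44 and 6.52 in AC (1.41). Angpt1 was thus higher where Tek lay at the background level. Spns2, the transporter by which endothelium exports sphingosine 1-phosphate, was lower at -3.25, and Sphk1, the kinase that makes it, at -1.69. Lpl, the lipase that Gpihbp1 carries, had 12.44, 12.29 and 12.20 in DFAT cells and 14.21, 14.26 and 14.28 in AC (-1.94), still far above the background level. Epas1, the hypoxia-inducible factor HIF-2 alpha of endothelium and adipocytes, had the largest difference of the list at -7.71, followed by the growth factor Pdgfb at -3.40. Among partners of Tal1, Lmo2 was lower at -3.24, Tcf3 was higher at 1.49 and Gata2 did not pass the test at -0.15 (adjusted p = 0.71 from limma).

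**Figure D5:**
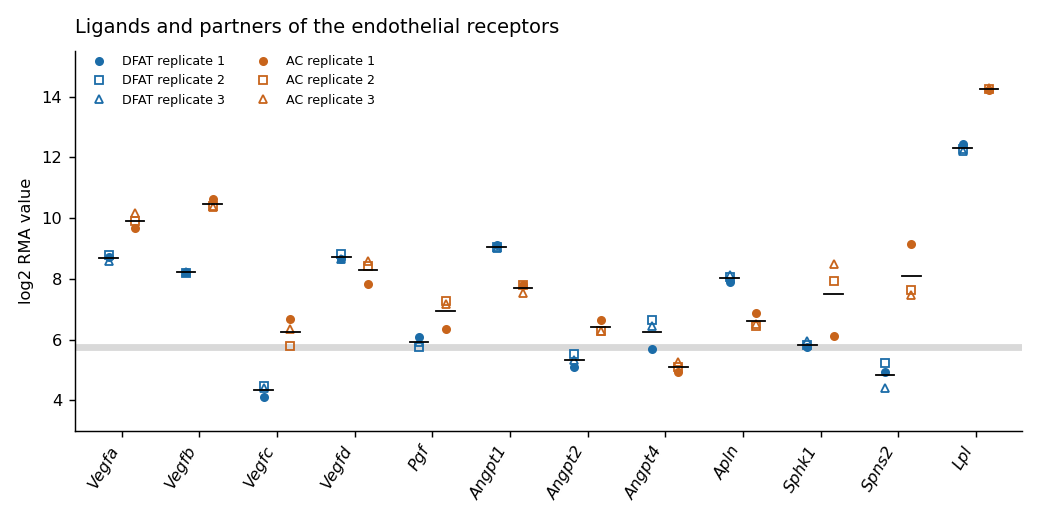
Log2 RMA values of 12 ligands and partners of the endothelial receptors (y axis) on the 3 DFAT arrays (blue, left) and the 3 AC arrays (orange, right), with group means as black bars and the range of the background level in grey. Angpt1, Angpt4 and Apln lie higher in DFAT cells, while Vegfa, Vegfb, Vegfc and Lpl lie lower.

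Of the 65 probe sets of the 35 genes, 49 were lower in DFAT cells, 3 were higher, all of Tm4sf1, and 13 did not pass the test. Several probe sets stood for 16 genes, and in 8 of these every one had the call of the brightest. No gene had probe sets called in opposite directions, and 32 genes had at least 1 lower probe set. Levels of different probe sets cannot be compared with each other, so no gene was ranked above another by its level.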

How the data were processed

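Expression was measured on 6 Affymetrix GeneChip Mouse Genome arrays, 3 of DFAT cells and 3 of AC, grouped by the sample labels. The deposited values were on the log2 scale, after the authors had normalized the raw data with RMA in the Bioconductor package affy, for which no version, and no list of the arrays normalized together, is given in the sources used here. The study's hepatocyte and liver stem cell arrays were not used here.

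Of 45101 probe sets, 64 controls were left out and 45037 were tested. By GEO's platform annotation, 34945 have 1 gene symbol, 932 several and 9160 none. Those with 1 symbol stand for 18193 genes, and 34741 of them were found by Entrez ID in RefSeq's GRCm38.p6 table, 0 with another symbol there. The array values name no build, so probe sets have no coordinates here.

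Every probe set was fitted with limma 3.58.1 under R 4.3.3, using lmFit and eBayes without a filter or replicate block. Tests were two-sided, and adjusted p-values (Benjamini-Hochberg over the 45037) under 0.05 were called. Where several probe sets stood for a gene, the one brightest on average across arrays was used. No exact permutation test was run, since 3 against 3 arrays allow no p under 0.1. The step was tested on simulated data. Named were all 35 genes by role. Of the further endothelial genes and the ligands, those directly paired with members were named, and up to 4 in each direction with the largest difference whose groups did not overlap. Of marker lists the 2 largest differences were named. Other names were chosen after their values were seen. The 35 genes and the lists were chosen with earlier results of these data known. Alternatives were quantile normalization again and centring on array medians, 15 reference genes or 18 hybridization control probe sets. Further ones were dropping dim probe sets, flooring values at the background level, array weights, and trend and robust variances. The rest were Student's t-test, the methods' 4-fold rule, the replicate block, other rules for probe sets, other percentiles of the background genes (90th and 99th) and leaving out each array. Tables were made in Python 3.11.15 (pandas 2.3.3, numpy 2.4.6) and figures with matplotlib 3.10.9. The number of arrays limits the precision.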

Additional observations from a re-analysis of the deposited data

How the results depend on the processing

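The 31 called genes kept their direction under every alternative that tested them, and 16 of them also kept their side of the threshold under each. The limit to probe sets above the median level left out Tie1, Tal1, Lyl1, Clec14a, Vwf and Lyve1 of the called genes. The number of the 35 genes lower was 29 to 33 when 1 array was left out. It was 29, 30, 34 and 30 with quantile normalization, array medians, reference genes and hybridization controls. By Student's t-test it was 22, and 20 with values floored at the background level, where differences under it no longer count. Floored, 32 probe sets of these genes and 31 further endothelial genes were lower. By the 4-fold rule 24 of the 35 genes, 32 further endothelial genes and 6 ligands and partners were lower, and 3744 probe sets in all differed. Centred on the hybridization controls, 10 ligands and partners were lower with a median of 0.00, AC replicate 1 lay at least 2-fold above for 17 genes (median 0.93), and Prox1, which did not pass the test, turned to 0.0728, as it did to 0.2043 by its dimmest probe set. The cause was not tested.

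Of the calls over all probe sets 52.9% were higher in DFAT cells, and 63.0%, 26.4% and 78.5% with array medians, reference genes and hybridization controls, which put the median of all probe sets at 0.07, -0.38 and 0.40. Of the ligands and partners 17 were lower and 8 higher, against 20 and 5 with the reference genes and 10 and 8 with the hybridization controls. The direction of the 31 called genes did not change with these scalings. Leaving out 1 array gave 13160 to 20998 calls over all probe sets, the highest without AC replicate 1, 47 to 53 lower probe sets of the 35 genes, 43 to 52 further endothelial genes and 14 to 17 ligands and partners. With the 90th and 99th percentile, 23 and 30 genes were at the background level in DFAT cells and 2 and 3 in AC.

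The labels number the arrays 1 to 3 in both groups and do not say what the numbers stand for. Same-numbered arrays did not deviate together from their group means (r of -0.02, -0.03 and 0.01). With 3 arrays per group this cannot show whether they share an animal or a day. With the replicate number as a block, 33 of the 35 genes were lower, Fli1, Aplnr and Adgrf5 among them, with 54 of their probe sets, 51 further endothelial genes, 16 ligands and partners and 16023 probe sets in all. Values under the background level have no order, and RMA values hold no depth.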
